A study of Mus musculus with 15 samples.

Results

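Vip interneurons are GABAergic neurons of the hippocampal formation and cortex that make the neuropeptide vasoactive intestinal peptide. They arise in the caudal ganglionic eminence of the embryonic forebrain, together with Lamp5 neurogliaform cells and the Cck basket cells, whereas Lhx6-positive interneurons (the Sst and Pvalb cells) come from the medial ganglionic eminence. Many Vip cells contact other interneurons rather than pyramidal neurons, so that their firing releases pyramidal neurons from inhibition; others co-release cholecystokinin and contact pyramidal cell bodies. They are known to respond to acetylcholine and serotonin.

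Here a nucleus was counted as a Vip interneuron if its barcode held at least 1000 detected genes, at least 2 unique molecular identifiers (UMIs, each 1 captured RNA molecule) of Gad1 and Gad2 together, at least 3 UMIs of Adarb2, no UMI of Lhx6 and at least 1 UMI of Vip. Of 134019 barcodes in 15 libraries, 124527 had at least 1000 genes, 14054 of these were GABAergic by the Gad threshold, 9588 of those had Adarb2 and no Lhx6 (Adarb2-type nuclei), and 239 met the whole rule. The members were therefore selected by the counts of Gad1, Gad2, Adarb2, Lhx6 and Vip, and the levels of these 5 genes in them are a description and no finding. On mouse genome GRCm38, Vip lies at chr10:5639218-5647617 on the plus strand, Adarb2 at chr13:8202866-8768747 on the plus strand, and the label markers not used by the rule, Npas1 and Cnr1, at chr7:16455721-16477728 on the minus strand and chr4:33924593-33948831 on the plus strand.

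The data are single-nucleus RNA-seq (10x Genomics 3' v3.1) of dorsal hippocampal formation (dHF, dHpc in the labels) from female wild-type C57BL/6J mice, with 1 library per mouse made from punches of both hemispheres pooled. The 6 NP mice were virgin and nulliparous. The 4 control RE mice (ControlPP in the labels) had reproductive experience, that is mating, pregnancy, birth, lactation and pups until weaning, and the 5 stress RE mice (StressPP) had the same experience with limited nesting material and daily separation from the pups late in lactation. No group carried a transgene or drug, NP mice were age-matched, and the labels give no age at collection. The study took tissue for its brain-wide bulk profiling weeks after weaning, and its methods state no time for these nuclei. By the study's methods the punches also took in parts of cortex, thalamus and ventral hippocampus, so the location of a nucleus is not known from its library. The labels give each library a batch number from 1 to 3 and do not say which step it refers to: batch 1 was made up of NP mice 27 and 31 and stress RE mouse 70, without any control RE mouse, while in batches 2 and 3 all groups were represented by 2 mice. The study's methods describe batches that each held every group, which batch 1 of the labels does not, so it is not known that the numbers are those batches. Libraries held 5789 to 12738 barcodes and 40602582 to 96211264 UMIs. Of 131768 distinct barcode sequences, 2211 were found in more than 1 library; 7 members carried such a barcode and no barcode was a member in 2 libraries.

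The 239 nuclei had a median of 10139 UMIs (range 3167 to 47445) and 3400 genes (1689 to 7797). They held a median of 5 Vip UMIs (1 to 31), 96 Adarb2 UMIs (3 to 1899) and 5 UMIs of Gad1 and Gad2 together (2 to 32). All 15 libraries held 2033 Vip UMIs, and 1526 of these (75.1%) were in the members. In nuclei that should lack it, a Vip UMI was found in 0.354% of excitatory and 0.300% of oligodendrocyte nuclei (median depths 14786 and 3025 UMIs). Members with a single Vip UMI were 59 of the 9588 Adarb2-type nuclei (0.615%), and members of any Vip count were 2.49%; how many of the former hold only free Vip RNA was not tested. Among barcodes with at least 1000 genes, 569 had a Vip UMI and 137 had at least 5, of which 123 were members. Just inside the Gad threshold were 38 members with 2 Gad UMIs, with a median of 3 Vip UMIs, and just outside it were 35 nuclei that had 1 Gad UMI and met the rest of the rule, with a median of 1 Vip UMI. Npas1 was detected in 42.1% of the former and 17.1% of the latter, and Cnr1 in 73.7% and 20.0%. Another 110 nuclei had no Gad UMI and met the Adarb2 and Lhx6 parts of the rule; their median was 1 Vip UMI, and 8 of them had at least 5. The rule left out 15 GABAergic nuclei for fewer than 3 Adarb2 UMIs and 4 that met the other parts because they held a Lhx6 UMI.

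The label was checked on Npas1, a transcription factor of caudal-eminence interneurons, and Cnr1, the cannabinoid receptor CB1 on interneuron terminals, which the rule did not use. Npas1 was detected in 68.2% of members (median depth 10139 UMIs), against 8.48% of the 9349 Adarb2-type nuclei without a Vip UMI (11343 UMIs) and 0.400% of 21023 oligodendrocyte nuclei (3025 UMIs), which should lack it. Cnr1 was detected in 83.3%, 25.4% and 4.85% of the same sets. Nuclei with at least 2000 UMIs were also thinned to that depth, and those with fewer were left out of the thinned shares. This kept all 239 members and 18594 of the 21023 oligodendrocyte nuclei. The values were then 27.5%, 3.10% and 0.196% for Npas1 and 49.8%, 11.2% and 2.40% for Cnr1. Of the members, 152 had UMIs of Npas1 and Cnr1, 58 had 1 of these genes and 29 had neither, and 23 of those 29 held a single Vip UMI. No test was made of these shares, since nuclei of 1 mouse share their library.

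Levels are given below as CPM, the UMIs of a gene for every 1000000 UMIs summed over the members of 1 mouse, as the mean ± SD over 15 mice. The level of Npas1 was 161 ± 64.8 CPM in the members, against a mean of 21.4 CPM in Adarb2-type nuclei without Vip, 5.16 in 247 Lamp5-type nuclei (Adarb2-type, without Vip, at least 2 Lamp5 UMIs) and 45.5 in 382 Lhx6-type nuclei (GABAergic, at least 2 Lhx6 UMIs, fewer than 3 of Adarb2). Cnr1 was at 519 ± 208 CPM, against 145, 157 and 33.9 CPM in those sets. Of the genes that define related classes, some were at or near 0: Lamp5 was at 0.761, Sst at 2.83, Pvalb at 1.02 and Ndnf at 0.547 CPM, with 3, 12, 3 and 2 UMIs in all members. Others were present: Kit was detected in 31.4%, Reln in 23.8% and Nxph1 in 25.1% of members, and the whole lists summed to a mean of 176 CPM (Lamp5 markers) and 471 CPM (medial-eminence markers), against 2049 and 4464 CPM in Lamp5-type and Lhx6-type nuclei. The heat map of marker levels sets the members beside these sets, 14391 excitatory nuclei (at least 3 UMIs of the glutamate transporter Slc17a7 and no Gad UMI) and the oligodendrocyte nuclei (at least 5 UMIs of Mog, Mag and Mobp and no Gad UMI).

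**Figure D1:**
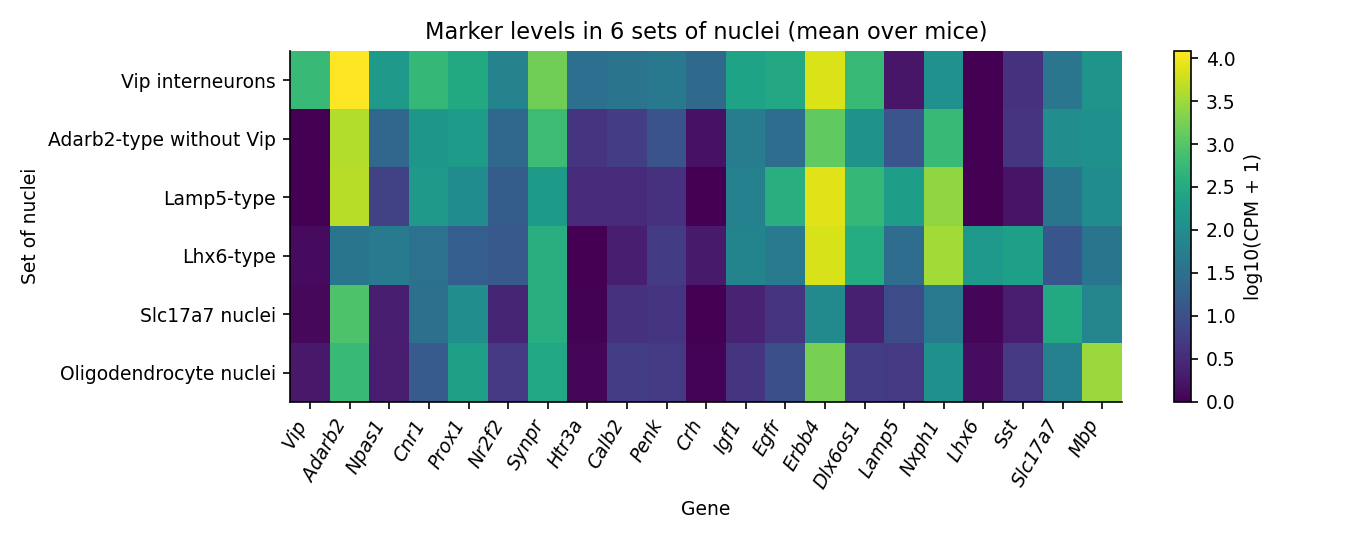
Heat map of the mean level over mice, as log10(CPM + 1), of 21 genes (columns) in 6 sets of nuclei (rows). Of the genes drawn, Vip, Adarb2, Lhx6, Lamp5 and Slc17a7 were used to gate sets. The oligodendrocyte set was gated on Mog, Mag and Mobp, which are not drawn, and Mbp gated no set. Npas1 (161 CPM), Htr3a (29.9 CPM), Calb2 (35.9 CPM) and Crh (24.9 CPM) were higher in Vip interneurons than in the other 5 sets, while Erbb4 was at 7194, 7853 and 6900 CPM in the Vip, Lamp5-type and Lhx6-type sets and at 1783 CPM in oligodendrocyte nuclei.

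Several transcription factors of the caudal-eminence lineage were present. Prox1, which is needed for the maturation of these interneurons, was at 299 ± 93.2 CPM and was detected in 86.2% of members; it is also made by dentate granule neurons and oligodendrocytes, and after thinning its share was 43.03% in members and 34.7% in oligodendrocyte nuclei. Nr2f2 (COUP-TFII) was at 65.7 ± 37.3 CPM, against 22.5 CPM in Adarb2-type nuclei without Vip, 15.3 in Lamp5-type and 12.8 in Lhx6-type nuclei. Dlx1 was at 100.2 ± 39.3 CPM against 13.4, 34.2 and 42.5 CPM in the same sets. Dlx6os1, a long noncoding RNA of forebrain GABAergic neurons, was at 574 ± 223 CPM and near that level in Lamp5-type nuclei (529 CPM). Sp8, which marks immature caudal-eminence cells, had 12 UMIs in all, and Npas3 was at 2780 ± 769 CPM against 688, 596 and 1003 CPM; it was also common in oligodendrocyte nuclei (881 CPM), where its share after thinning was 72.7%, against 85.2% in members. All 17 genes of the transcription factor list had a UMI in the members.

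Genes of GABA handling and synapses that the rule did not use were measured in every mouse. Slc32a1, the vesicular GABA transporter, was at 52.0 ± 18.8 CPM, below the means of Lamp5-type (61.4) and Lhx6-type nuclei (66.6). Erbb4, a neuregulin receptor, was at 7194 ± 1677 CPM, near its level in Lamp5-type (7853) and Lhx6-type nuclei (6900), and at 1224 CPM in Adarb2-type nuclei without Vip. Oligodendrocyte nuclei held it too, at 1783 CPM, and after thinning it was detected in 88.3% of them and 92.8% of members. Synpr (synaptoporin), a synaptic vesicle protein, was at 1603 ± 443 CPM, above 169 CPM in Lamp5-type and 384 CPM in Lhx6-type nuclei.

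Among 21 neuropeptide and growth factor genes, 17 had a UMI in the members, and Adcyap1, Trh, Nts and Grp had none in 239 nuclei. By counting error alone, with the nuclei of all mice pooled, this allows a share of nuclei with a UMI of up to 1.26%. Penk (proenkephalin) was detected in 32.6% of members and was at 43.4 ± 28.0 CPM, against 9.91 CPM in Adarb2-type nuclei without Vip and 4.01 CPM in oligodendrocyte nuclei. Crh (corticotropin-releasing hormone) was detected in 15.9% and was at 24.9 ± 26.99 CPM, against 0.612 CPM in Adarb2-type nuclei without Vip and 0 in Lamp5-type nuclei. Tac2 (neurokinin B) was detected in 9.62%, and Pthlh in 7.95% at 9.33 ± 9.45 CPM against 0.176 CPM in Adarb2-type nuclei without Vip. Igf1 was at 237 ± 88.1 CPM against 53.9, 62.4 and 69.9 CPM in the 3 other GABAergic sets and 3.33 CPM in oligodendrocyte nuclei. Of 38 members with Crh, 13 had Penk (34.2%, near the 32.6% of all members), and of 78 with Penk, 5 had Tac2 (6.41%, against 9.62% of all members). Of 23 members with Tac2, 8 had Crh and 8 had Cck (34.8% each, against 15.9% and 21.8% of all members).

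Calb2 (calretinin) and Cck mark different kinds of Vip cell. A Calb2 UMI was found in 56 members (23.4%), against 3.95% of Adarb2-type nuclei without Vip and 1.53% of oligodendrocyte nuclei. A Cck UMI was found in 52 members (21.8%), close to its share in Adarb2-type nuclei without Vip (18.4%), Lamp5-type (24.3%) and Lhx6-type nuclei (19.6%) and below that in excitatory nuclei (45.8%), with 8.79% in oligodendrocyte nuclei. These sets differed in depth; at an equal 2000 UMIs per nucleus, the Cck share was 7.17% in members, 4.01%, 4.43% and 2.84% in the 3 other GABAergic sets, 9.98% in excitatory and 4.82% in oligodendrocyte nuclei. UMIs of both genes were found in 8 members, 14.3% of the Calb2 and 15.4% of the Cck nuclei, and 139 had neither. The 44 nuclei with Cck only were deeper (median 13566 UMIs) than the 48 with Calb2 only (9407 UMIs), and each set came from 14 mice.

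The levels of several genes differed between the nuclei with Cck only and those with Calb2 only, described here for 13 mice that had nuclei of both kinds and without a test, as the genes were chosen with values known. Cnr1 was at 1208 CPM in the summed Cck nuclei and 282 CPM in the Calb2 nuclei, and was higher in the Cck nuclei of 12 of 13 mice. Cntnap4, a contactin-associated protein of interneuron synapses, was at 649 and 107 CPM and was higher in 12 of 13 mice and equal in 1. Kcnip1, a subunit that modulates Kv4 potassium channels, was at 1291 and 629 CPM and higher in 12 of 13, though it was detected in fewer of the Cck nuclei (84.1%) than of the Calb2 nuclei (91.7%). In the other direction, Grm8 (a presynaptic metabotropic glutamate receptor) was at 695 and 1719 CPM, lower in the Cck nuclei of 10 of 13 mice, and Kcnc2 (the Kv3.2 potassium channel) was at 691 and 1820 CPM, lower in 9. Npas1 (174 and 163 CPM) and Prox1 (244 and 314 CPM) were near each other in both kinds of nuclei. The synuclein gene Sncg, a marker of Cck basket cells, had UMIs in 9.09% of the Cck nuclei and in none of the 48 Calb2 nuclei, a count of 0 that allows a share of up to 6.25%.

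**Figure D2:**
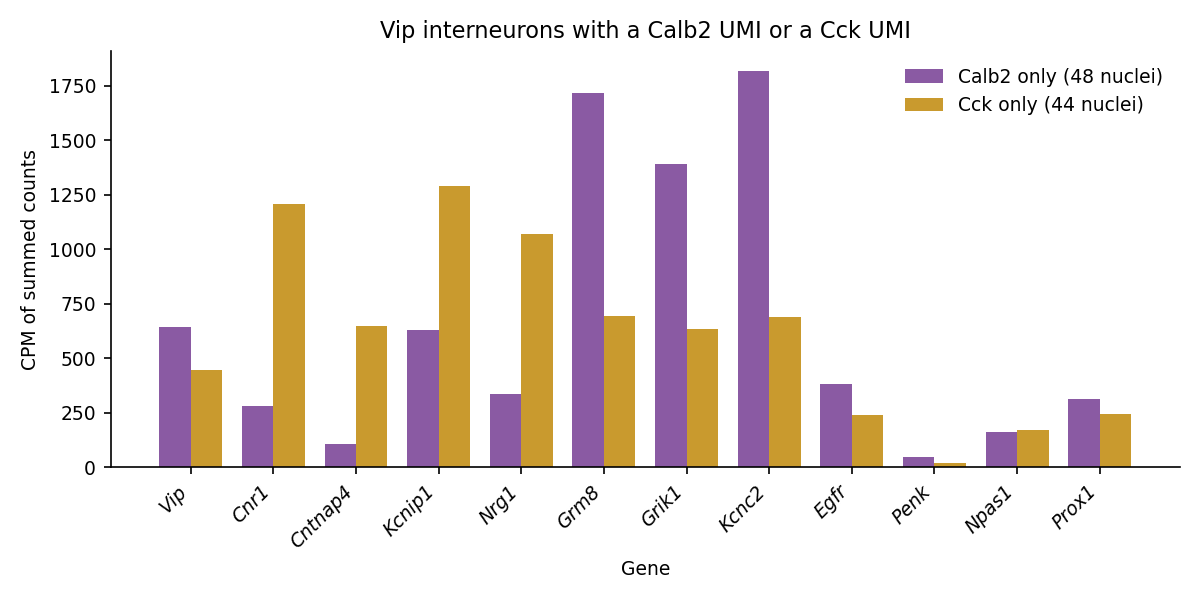
Level in CPM (vertical axis) of 12 genes in the summed counts of 48 Vip interneurons with a Calb2 UMI and no Cck UMI and of 44 with a Cck UMI and no Calb2 UMI; no error bar is drawn because each bar is 1 sum over nuclei of 14 mice. Cnr1, Cntnap4 and Kcnip1 were higher in the Cck nuclei, and Grm8, Grik1 and Kcnc2 in the Calb2 nuclei; the sums of Nrg1 were 1069 and 336 CPM, but it was detected in 54.5% and 54.2% of these nuclei and was higher in the Cck nuclei of 8 of 13 mice and lower in 5.

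Receptors of modulatory transmitters differed widely in detection. Htr3a, the ionotropic serotonin receptor subunit, was found in 20.5% of members and was at 29.9 ± 21.0 CPM, against 3.31 CPM in Adarb2-type nuclei without Vip and 0 in Lhx6-type nuclei. Chrm3, a muscarinic receptor, was at 1294 ± 210 CPM against 350 CPM in Adarb2-type nuclei without Vip and 1351 CPM in excitatory nuclei. Adra1b, an alpha-1 adrenergic receptor, was at 100.8 ± 49.7 CPM against 11.0 CPM, and its relative Adra1a at 93.8 ± 49.0 CPM against 59.5 CPM, with 524 CPM in Lamp5-type nuclei. Chrna4, a nicotinic subunit, was at 21.4 ± 19.1 CPM, and Chrna2 had no UMI. Npy1r, a neuropeptide Y receptor, was at 56.9 ± 29.9 CPM against 29.6 CPM in Adarb2-type nuclei without Vip and 1.94 CPM in Lhx6-type nuclei. The receptors for the peptide itself were scarce, with 18 UMIs of Vipr1 and 3 of Vipr2 in all members.

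The study concerned hormones, stress and dopamine, so receptors for these were read in every mouse. Nr3c2, the mineralocorticoid receptor, was detected in 95.8% of members at 879 ± 249 CPM, and Nr3c1, the glucocorticoid receptor, in 58.6% at 106 ± 25.5 CPM. After thinning, Nr3c2 was detected in 72.02% of members, 83.2% of excitatory and 44.7% of oligodendrocyte nuclei, and Nr3c1 in 19.0%, 18.8% and 34.8%. Pgr (progesterone receptor) was at 37.1 ± 27.7 CPM and Esr1 (an estrogen receptor) at 10.5 ± 11.2 CPM, and Esr2 had 1 UMI. The prolactin receptor Prlr was found in 5.44% of members, against 13.4% of Adarb2-type nuclei without Vip and 6.97% of excitatory nuclei. After thinning the Prlr share was 1.18% in members and 1.36% in excitatory nuclei. Oxtr had 1 UMI. Few UMIs of dopamine receptors were found: Drd1 had 3 UMIs, Drd2 had 15 UMIs in 5 nuclei and Drd3 had none. The Drd2 share was 2.09% in members and 2.61% in excitatory nuclei, and 0.555% and 0.418% after thinning, so no order was read from it. Drd4 had 5 UMIs in 2.09% of members, against 0.118% of Adarb2-type nuclei without Vip and 0.0973% of excitatory nuclei. Esr1, Esr2, Pgr, Prlr, Oxtr and all 6 genes of the dopamine list were too low to enter the tests between groups.

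The highest genes of the remaining lists were those of synapses and excitability. The adhesion genes Nrxn3, a presynaptic neurexin, and Cntnap2, a contactin-associated protein, were at 12953 ± 2240 and 7875 ± 2786 CPM in the members, against 6105 and 2732 CPM in Adarb2-type nuclei without Vip. The potassium channel genes Kcnip4, a Kv4 partner, and Kcnq5, of the M current, were at 11621 ± 1603 and 1523 ± 328 CPM, against 9447 and 786 CPM, and in Lhx6-type nuclei they were at 1351 and 302 CPM. Among glutamate receptors the kainate subunit Grik2 was at 3030 ± 526.2 CPM and the NMDA subunit Grin2b at 2292 ± 446 CPM, against 2127 and 1658 CPM in Adarb2-type nuclei without Vip. Among GABA-A subunits Gabrg3 was at 1381 ± 394 CPM, below 3251 CPM in Lamp5-type and 2765 CPM in Lhx6-type nuclei, and Gabrb1 was at 905 ± 168 CPM. The neuregulin gene Nrg3 was at 5971 ± 1091 CPM and Mgll, which breaks down the endocannabinoid 2-AG, at 158 ± 48.1 CPM. Of the glucocorticoid-responsive genes Zbtb16 and Sgk1 were at 437 ± 91.1 and 189 ± 55.3 CPM. Thrb, a thyroid hormone receptor, was at 1035 ± 241 CPM against 290 CPM in Adarb2-type nuclei without Vip, and the immediate early genes Homer1 and Egr1 were at 94.5 ± 27.3 and 21.0 ± 21.2 CPM.

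The genes that differed most between the members and the Adarb2-type nuclei without Vip were ranked by the ratio of mean CPM over 3805 genes at 50 CPM or more in either set. The comparison is a description, because the nuclei were divided on Vip, the genes were picked by this ratio, and a gene could pass the 50 CPM minimum through the set where it was high alone. Qrfpr, a neuropeptide receptor, stood at 51.1 ± 25.6 CPM against 2.49 CPM (ratio 20.5), and Wnt5b, a Wnt ligand, at 220 ± 100.3 CPM against 12.3 CPM (ratio 17.9). Rspo2, a secreted enhancer of Wnt signalling, Cbln2, a synaptic organizer, and Fbln2, a matrix protein, had ratios of 13.1, 11.7 and 10.9. Elfn1, a postsynaptic adhesion protein that recruits metabotropic glutamate receptors, was at 122 CPM in the members and 10.4 CPM in Adarb2-type nuclei without Vip, with 156 CPM in Lhx6-type nuclei. Egfr, the epidermal growth factor receptor, had a ratio of 10.5 but was at 377 CPM in Lamp5-type nuclei, above the 290 CPM of the members.

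At the other end of the ranking were Mecom (2.12 against 69.3 CPM), Unc13c (22.4 against 192), Otx2os1 (25.5 against 164), Meis2 (39.1 against 206) and Foxp2 (28.1 against 138). Meis2 and Foxp2 are transcription factors of striatal projection neurons, among others, and Adarb2 itself was at 871 CPM in excitatory nuclei, so that the Adarb2-type set without Vip was no pure set of interneurons. In Lamp5-type nuclei Meis2 was at 203 CPM and Foxp2 at 120 CPM, so that set cannot be taken as pure either. Nxph1 (neurexophilin 1) was at 116 ± 142 CPM in the members, 587 CPM in Adarb2-type nuclei without Vip, 2536 CPM in Lamp5-type and 3290 CPM in Lhx6-type nuclei.

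Members differed among themselves with the number of Vip UMIs: 59 had 1, 57 had 2 to 4 and 123 had 5 or more, at median depths of 10613, 10302 and 9600 UMIs. From the first to the last class, Cnr1 was detected in 57.6%, 87.7% and 93.5% of nuclei, Dlx6os1 in 59.3%, 87.7% and 97.6%, Egfr in 20.3%, 57.9% and 74.8%, Igf1 in 45.8%, 68.4% and 85.4%, and Penk in 11.9%, 28.1% and 44.7%. Other genes of Vip cells showed no such order: Crh was detected in 15.3%, 24.6% and 12.2%, Tac2 in 11.9%, 8.77% and 8.94% and Htr3a in 16.9%, 29.8% and 17.9%. Several markers of other cells went the other way. Glis3, a dentate granule marker here, was detected in 37.3%, 15.8% and 13.8%, Rgs9, of striatal projection neurons, in 32.2%, 8.77% and 8.94%, and Slc17a7 in 30.5%, 22.8% and 13.8%. The oligodendrocyte gene Mbp was at 30.5%, 26.3% and 32.5%. Of 7 members that lacked Erbb4 and Dlx6os1, 6 were in the class with 1 Vip UMI. The members with 1 Vip UMI numbered 20 of 79 for NP, 15 of 64 for control RE and 24 of 96 for stress RE mice.

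**Figure D3:**
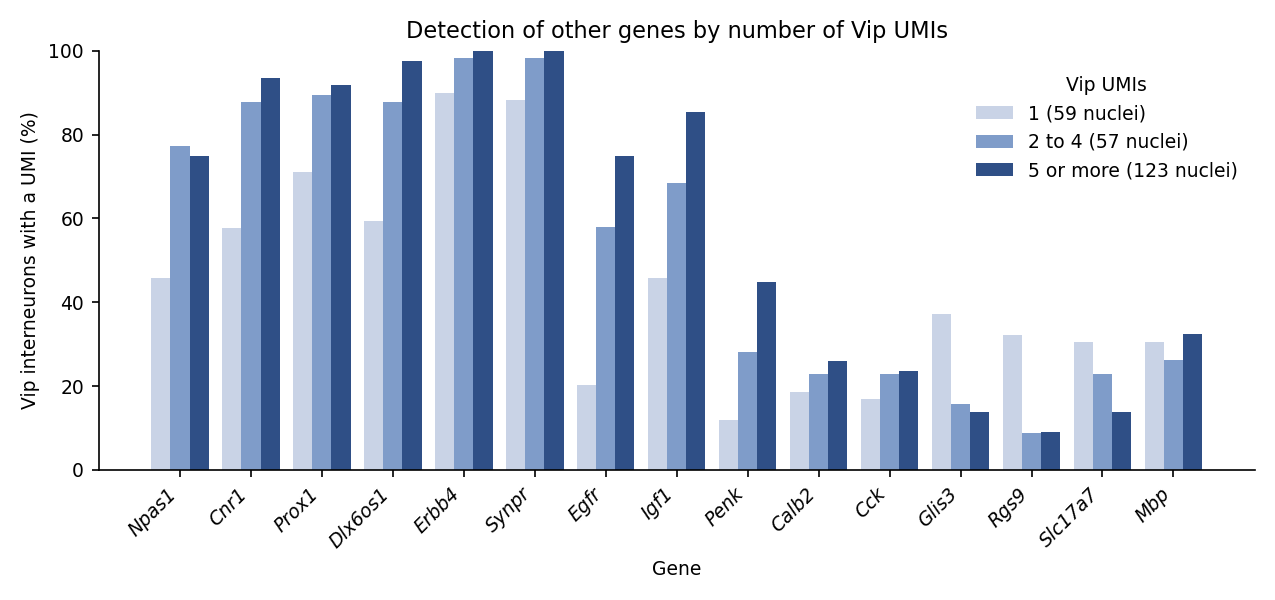
Percent of Vip interneurons with at least 1 UMI of each of 15 genes (vertical axis), for nuclei with 1, 2 to 4 and 5 or more Vip UMIs; bars are counts of nuclei pooled over mice, without error bars. Cnr1, Dlx6os1, Egfr and Penk were found most often in nuclei with 5 or more Vip UMIs, Glis3, Rgs9 and Slc17a7 in nuclei with 1, and Mbp at 26.3% to 32.5% in the 3 classes.

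Transcripts of marker lists of other cells were present in most members. Over the marker lists of excitatory neurons, oligodendrocytes, astrocytes and microglia, 166 of the 239 members (69.5%) had at least 3 UMIs. The same count was not made for the other sets of nuclei. The 8 oligodendrocyte markers summed to 386 to 697 CPM in NP, 129 to 991 CPM in the control RE and 91.7 to 1027 CPM in the stress RE mice (medians 683, 310 and 157 CPM), against 13346 CPM in oligodendrocyte nuclei. Their mean sum was 499 CPM in members and 463, 398 and 185 CPM in Adarb2-type nuclei without Vip, Lamp5-type and Lhx6-type nuclei. The 8 excitatory markers summed to 136 to 249, 143 to 412 and 203 to 311 CPM, against 1008 CPM in excitatory nuclei. Their mean sum was 239 CPM in members, 308 CPM in oligodendrocyte nuclei, 206 CPM in Lamp5-type and 65.5 CPM in Lhx6-type nuclei. The excitatory list held Prox1os, a transcript named for the Prox1 locus. After thinning, Prox1os was detected in 16.5% of members, 4.37% of excitatory, 3.55% of Lamp5-type and 0.865% of Lhx6-type nuclei. Slc17a7 was at 5.50% in members and 49.97% in excitatory nuclei. The excitatory sum and the count of 166 members are therefore no measure of excitatory RNA alone. The 6 dentate granule markers summed to 287 to 989, 324 to 723 and 426 to 1046 CPM, against 1857 CPM in Adarb2-type nuclei without Vip. The 8 Lamp5 markers summed to 98.9 to 442, 62.5 to 141 and 84.8 to 236 CPM, against 2049 CPM in Lamp5-type nuclei, with Cplx3 at 0 and Lamp5 and Ndnf near 0. The 9 medial-eminence markers summed to 301 to 591, 314 to 892 and 240 to 885 CPM, against 4464 CPM in Lhx6-type nuclei. The 8 striatal markers summed to 448 to 1179, 661 to 825 and 852 to 1456 CPM, with Drd1 and Ppp1r1b near 0, against 1180 CPM in Adarb2-type nuclei without Vip and 915 CPM in excitatory nuclei. The striatal sum was highest in Lamp5-type nuclei (1899 CPM) and was 1356 CPM in Lhx6-type nuclei. The 6 thalamic markers had the highest mean sum of these lists (1340 CPM), at 884 to 2302, 1087 to 1420 and 933 to 2225 CPM, against 2014 CPM in Adarb2-type nuclei without Vip, 1194 CPM in excitatory and 983 CPM in oligodendrocyte nuclei. It was 1330 CPM in Lhx6-type and 1904 CPM in Lamp5-type nuclei. Tcf7l2, Lef1, Zfhx3, Gata3 and Otx2 of this list were detected in 15.9%, 7.95%, 29.3%, 2.51% and 1.26% of members. The size of the thalamic sum is therefore no measure of thalamic RNA. All 8, 8 and 6 genes of the oligodendrocyte, excitatory and dentate lists had a UMI, as did all 6 astrocyte markers (at most 67.3 CPM summed in any mouse) and all 5 microglia markers (at most 132 CPM), and the choroid plexus genes Clic6 and Folr1 were at 0. Scrublet marked 40 members (16.7%) among the highest doublet scores, 0 to 7 in each mouse, where a rate set by library size marked 4.63% to 10.2% of all barcodes; these were 8 of 79 members of NP, 12 of 64 of control RE and 20 of 96 of stress RE mice. The part of other-cell transcripts and doublets in the levels above was not tested.

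The first question of the design was whether reproductive experience, or stress added to it, went with a different number of Vip interneurons. As a percent of barcodes with at least 1000 genes, members ranged from 0.118% to 0.357% in the 6 NP mice, with a median of 0.164%. In control RE mice 66, 72, 87 and 88 they were 0.217%, 0.206%, 0.0929% and 0.139%. In stress RE mice 43, 70, 75, 77 and 90 they were 0.203%, 0.422%, 0.0994%, 0.406% and 0.165%. Mice 70 and 77 were the highest of all, mouse 75 was near the lowest, and the ranges of the 3 groups overlapped. The means were 0.185% ± 0.0888 for NP, 0.163% ± 0.0583 for control RE and 0.259% ± 0.146 for stress RE mice (SD, n = 6, 4 and 5). With 7 to 32 members per library, each value carried a wide Wilson 95% interval, for instance 0.0505% to 0.171% in mouse 87 and 0.279% to 0.639% in mouse 70; these intervals cover counting error only.

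No difference in share between groups was larger than the spread between mice. The difference was -0.0216 percentage points for control RE minus NP (two-sided exact permutation test over mice, p = 0.748), 0.0957 for stress RE minus control RE (exact p = 0.302) and 0.0741 for stress RE minus NP (exact p = 0.273). The smallest p that these designs allow is 0.00476, 0.00794 and 0.00216. Within batch 2 the differences were -0.0110, 0.113 and 0.102 points, and within batch 3 they were 0.0213, -0.00339 and 0.0179 points, with 2 mice a group; batch 1 held no control RE mouse. As a percent of GABAergic nuclei the members made up 1.62% ± 0.649, 1.89% ± 0.734 and 1.97% ± 0.928, and of Adarb2-type nuclei 2.29% ± 1.06, 2.62% ± 1.11 and 3.00% ± 1.55, in NP, control RE and stress RE mice. Without the barcodes marked as doublets, which were 10.1%, 18.8% and 20.8% of the members of NP, control RE and stress RE mice, the differences in percent of barcodes were -0.0332, 0.0802 and 0.0470 points. For the 9 differences (3 denominators by 3 comparisons) the exact permutation p was 0.273 to 0.913, and 0.841 to 0.913 after Benjamini-Hochberg adjustment over the 9.

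**Figure D4:**
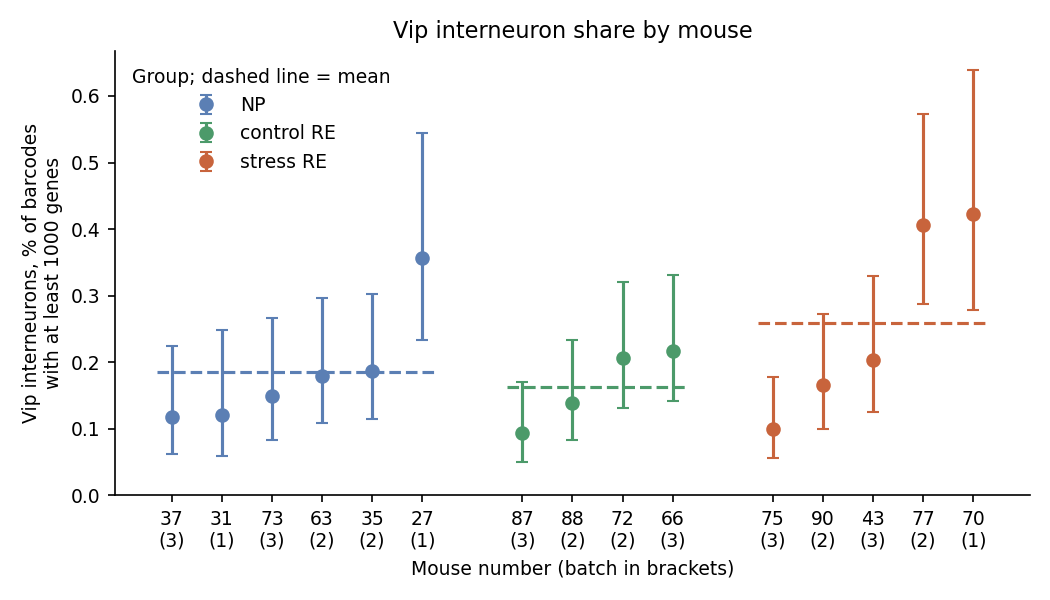
Vip interneurons as a percent of barcodes with at least 1000 genes (vertical axis) in each mouse, ordered by value within its group, with the batch in brackets; bars are Wilson 95% intervals from counts of nuclei and dashed lines are group means. The 3 groups overlap, with stress RE mice 70 (0.422%) and 77 (0.406%) and NP mouse 27 (0.357%) above the rest.

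The level of Vip, a gene of the rule, is given as a description without a test, since each member was required to hold a Vip UMI. It ran from 283 to 781 CPM in NP, with a median of 523 CPM. It was at 816, 588, 419 and 843 CPM in control RE mice 66, 72, 87 and 88, and at 381, 542, 594, 488 and 504 CPM in stress RE mice 43, 70, 75, 77 and 90. The groups overlapped. Npas1 ran from 117 to 361 CPM in NP, 98.2 to 233 CPM among control RE and 102 to 166 CPM among stress RE mice, and Cnr1 from 324 to 541, 455 to 945 and 239 to 876 CPM. Htr3a was at 30.9 to 87.2 CPM in NP mice (median 37.3), 17.7, 30.6, 8.92 and 26.9 CPM in control RE mice 66, 72, 87 and 88 and 6.40, 12.9, 9.43, 49.3 and 13.1 CPM in stress RE mice 43, 70, 75, 77 and 90. The lowest NP value lay just above the highest control RE value, while stress RE mouse 77 lay within the NP range; with 81 UMIs in all members Htr3a did not pass the filter and was not tested.

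**Figure D5:**
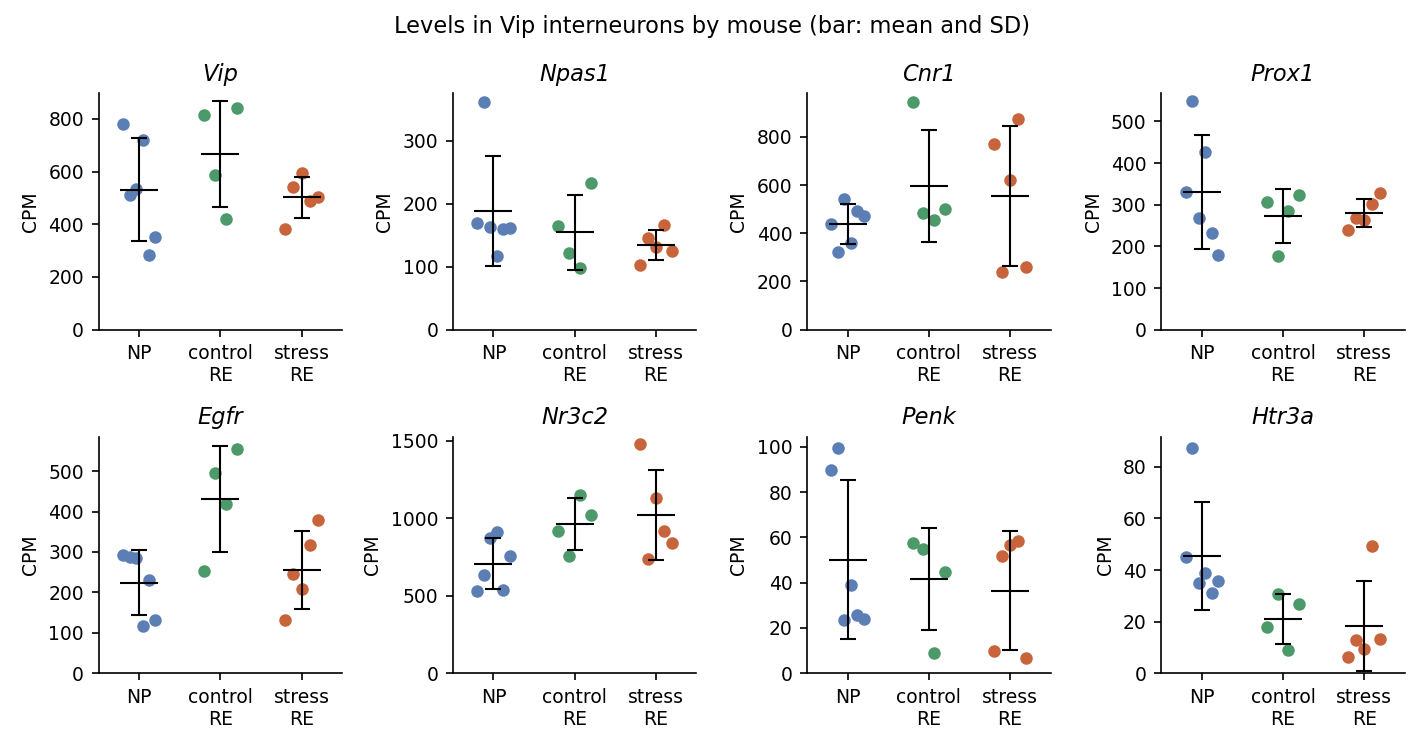
Level in CPM (vertical axes, each from 0) of 8 genes in the summed Vip interneurons of each mouse (points), with the mean and SD of each group (bars), for 6 NP, 4 control RE and 5 stress RE mice. The 3 groups overlap for Vip, Npas1, Cnr1, Prox1, Egfr, Nr3c2 and Penk, with Egfr highest in control RE mice (mean 431 CPM). For Htr3a, which was not tested, the lowest of the 6 NP mice lies just above the highest of the 4 control RE mice. The NP mean of Htr3a (45.5 CPM) includes mouse 31 at 87.25 CPM, with the next NP mouse at 44.94 CPM.

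Across all genes, counts were summed over the members of each of the 13 mice with at least 10 members, which were NP mice 27, 35, 63 and 73 and all control RE and stress RE mice (10 to 32 nuclei and 106092 to 446494 UMIs a mouse) and 3531 genes passed edgeR's filter on low counts. No gene passed an adjusted p of 0.05 in any of the 3 comparisons (0% of 3531 each; edgeR quasi-likelihood test, Benjamini-Hochberg), and DESeq2 called none either, nor did edgeR without the members marked as doublets. Without the filter on low counts (18692 genes) edgeR called 20, 24 and 18 genes (0.107%, 0.128% and 0.0963%) for control RE minus NP, stress RE minus control RE and stress RE minus NP, of which 4, 4 and 3 belonged to the gene lists. The summed oligodendrocyte markers differed between the groups in median (683, 310 and 157 CPM in all NP, control RE and stress RE mice). The summed striatal markers were 852 to 1456 CPM in stress RE mice, all above the 661 to 825 CPM of control RE mice, and 448 to 1179 CPM in NP mice. Without the filter, Rarb was the only gene of that list called, and only for stress RE minus NP, where the sums overlap. No gene of the striatal list was called for stress RE minus control RE. Meis2 and Foxp2, which were called there, belonged to no list. The part of these markers in the values of single genes was not tested. At an unadjusted p under 0.05 there were 130 genes (3.68%) for control RE minus NP, 99 (2.8%) for stress RE minus control RE and 113 (3.2%) for stress RE minus NP, and DESeq2 gave 92, 70 and 72. The ranges of the compared groups did not overlap for 89 (2.52%), 46 (1.3%) and 40 genes (1.13%). The genes named in the next paragraphs were the 8 of smallest p among these in each comparison and are given as values, not as changed genes.

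Between control RE and NP mice the smallest p belonged to Lin7a, a scaffold protein of synaptic junctions. It stood at 84.3, 58.2, 82.4 and 35.8 CPM in NP mice 27, 35, 63 and 73 and at 155, 135, 241 and 224 CPM in control RE mice 66, 72, 87 and 88, and at 92.8, 139, 151, 130 and 223 CPM in stress RE mice 43, 70, 75, 77 and 90. All control RE and stress RE values lay above the NP values. Here and below, the error of a log2 fold change is the standard error of the fit. The log2 fold change of Lin7a was 1.49 ± 0.32 for control RE minus NP (edgeR adjusted p = 0.746, and 0.00778 without the filter on low counts) and 1.13 ± 0.30 for stress RE minus NP (adjusted p = 1.00), and both comparisons share the NP mice. The 7 others were Nsd1, a histone H3 lysine methyltransferase (log2 fold change 0.63), and the peptidase Tpp2 (0.84), higher in control RE mice, and Gprasp1, which sorts receptors after endocytosis (-0.68), the chromatin cofactor Arid5b (-1.11), Oxr1, of the response to oxidative stress (-0.76), the microtubule protein Slain1 (-1.08) and 9330182L06Rik (-0.91), lower in them.

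Between stress RE and control RE mice the smallest p was that of Epb41l2, a cytoskeletal protein of the 4.1 family. Control RE mice 66, 72, 87 and 88 had 84.3, 116, 277 and 89.6 CPM and stress RE mice 43, 70, 75, 77 and 90 had 19.2, 42.0, 56.6, 58.2 and 39.3 CPM, so that the highest stress RE value lay below the lowest control RE value. The log2 fold change was -1.65 ± 0.42 (edgeR adjusted p = 0.999, and 0.00179 without the filter on low counts). Its relative Epb41 had the opposite sign (1.56 ± 0.41). The other 6 were Vstm2a (-0.74), the predicted genes Gm32509 (-1.06) and Gm4258 (0.77), Tpp2 (-0.89), Ust, a sulfotransferase of glycosaminoglycans (-0.89), and Rgl1, an exchange factor for Ral GTPases (1.16). Between stress RE and NP mice, beside Lin7a, they were Prex2, an exchange factor for Rac (1.62), Rgl1 (0.85), the exocyst subunit Exoc2 (0.73), Zmym6 (-0.96), the kinase Dyrk1a (-0.57), Anapc1, of the anaphase-promoting complex (-0.65), and the splicing factor Prpf39 (-0.57).

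The gene lists were read against these shares, with each median log2 fold change set beside that of all 3531 genes (0.00026, -0.0072 and 0.0079 for control RE minus NP, stress RE minus control RE and stress RE minus NP). Genes of the rule were left out of the lists here. No list member was called in any comparison with the filter on low counts. Without it Stxbp6, Sox6, Tshz2 and Nrg1 were called for control RE minus NP, Sox6, Nxph1, Stxbp6 and Tshz2 for stress RE minus control RE, and Vcan, Rarb and Cck for stress RE minus NP. Of 17 transcription factors 8 were tested, with medians of 0.10, -0.19 and 0.02, and Maf, a factor of interneuron maturation, was the 1 gene at an unadjusted p under 0.05 (0.50 ± 0.21 for control RE minus NP). Of 7 GABA genes other than Gad1 and Gad2, 6 were tested, with medians of -0.22, 0.12 and -0.15 and none at p under 0.05. Of 20 neuropeptide genes other than Vip, 4 were tested (-0.46, 0.49 and -0.07) and of 20 neuropeptide receptors 1. Of 9 endocannabinoid genes 6 were tested (0.25, -0.0030 and 0.05), with none at p under 0.05 in edgeR. Of 22 serotonin, acetylcholine and noradrenaline receptors 7 were tested (-0.07, 0.10 and 0.08), and the serotonin receptor Htr4 had 0.80 ± 0.33 for stress RE minus NP.

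Of the 16 steroid, prolactin and oxytocin receptors 8 were tested, with medians of 0.06, -0.0073 and -0.07. Nr3c2 was at 528 to 913 CPM in the 6 NP mice (median 697), at 918, 753, 1151 and 1022 CPM in control RE mice 66, 72, 87 and 88 and at 1476, 739, 1131, 914 and 838 CPM in stress RE mice 43, 70, 75, 77 and 90. All 9 RE values lay above the NP median and 6 of them above the highest NP value, and the groups overlapped. Its log2 fold change was 0.52 ± 0.24 for control RE minus NP and 0.62 ± 0.22 for stress RE minus NP, with edgeR adjusted p of 0.992 and 1.00. Nr3c1 was at 107 ± 29.9, 106 ± 29.4 and 106 ± 22.7 CPM (SD) in NP, control RE and stress RE mice. Of 12 glucocorticoid-responsive genes 4 were tested (0.14, -0.00033 and 0.14), and of 15 immediate early genes 1. Neither list had a gene at p under 0.05.

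Of 7 genes of Erbb4 signalling 5 were tested, with medians of -0.0035, 0.07 and 0.06. Egfr was at 253, 496, 419 and 556 CPM in control RE mice 66, 72, 87 and 88, at 117 to 292 CPM in the 6 NP mice and at 131, 245, 207, 318 and 380 CPM in stress RE mice 43, 70, 75, 77 and 90. Control RE mouse 66 lay within the NP range and the other 3 lay above it and above all stress RE mice. The log2 fold change was 0.87 ± 0.33 for control RE minus NP and -0.73 ± 0.30 for stress RE minus control RE (edgeR adjusted p of 0.992 and 0.999); both comparisons share the control RE mice. Of 12 GABA-A receptor subunits 9 were tested (0.04, 0.20 and 0.14), with Gabra4 at -0.94 ± 0.30 for control RE minus NP and Gabra3 at 0.95 ± 0.41 for stress RE minus control RE. Of 17 glutamate receptor subunits 16 were tested (-0.08, -0.03 and 0.12), with Gria3 at 0.60 ± 0.21 for stress RE minus control RE. Of 20 synaptic adhesion genes 18 were tested (-0.11, 0.0026 and -0.0078), with Cntn5 at 0.82 ± 0.29 for stress RE minus control RE and Cntnap2 at -0.65 ± 0.27 for stress RE minus NP. Of 16 potassium channel subunits 15 were tested (-0.10, 0.03 and -0.01) and none was at p under 0.05. Among the marker lists of other cells, Stxbp6, of the dentate granule list, was at -1.70 ± 0.70 for control RE minus NP and 1.61 ± 0.67 for stress RE minus control RE (edgeR adjusted p of 0.992 and 0.999, and 0.000445 and 0.000133 without the filter on low counts), and its part in these comparisons was not tested. Stxbp6 was detected in 33.9% of members, 49.5% of excitatory nuclei and 71.98% of oligodendrocyte nuclei, and at equal depth in 13.5%, 31.04% and 58.6%, so that it marked no single one of these classes here.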

How the data were processed

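Filtered feature-barcode matrices of UMI counts were deposited by the authors, 1 per mouse. By the methods, reads were aligned to mm10-2020-A (GRCm38) with Cell Ranger, version 7.1.0 in the submitters' processing notes and 7.0.0 in the file headers. The background correction, doublet removal and SCTransform normalization named in the methods are not part of these counts. Each library was 1 mouse; 40602582 to 96211264 UMIs a library and 106092 to 446494 summed UMIs a tested mouse set the precision.

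Members were found by the rule above in each library and their counts were summed per mouse. Shares were compared by two-sided exact permutation tests over mice. Sums of mice with at least 10 members were tested in 1 fit of all groups with edgeR 4.0.16 (R 4.3.3; filterByExpr, TMM, quasi-likelihood test) with Benjamini-Hochberg adjustment, after a test on simulated data; DESeq2 1.42.0 was an alternative. Detection was also given for nuclei thinned to 2000 UMIs, from the hypergeometric expectation of each. Nuclei with fewer UMIs were left out of these shares, which kept 14367 of 14391 excitatory and 18594 of 21023 oligodendrocyte nuclei. Doublets were marked, not removed, with Scrublet (scanpy 1.11.5) at 0.8% per 1000 barcodes. Positions are from the GRCm38 annotation in GENCODE vM21. Members and gene lists were chosen with earlier results of these data known. Named genes were those with adjusted p under 0.05, the 8 of smallest p with groups that do not overlap per comparison, the highest members of each list, label markers and receptors, and 15 genes at each end of the ratio to Adarb2-type nuclei without Vip. The Calb2 and Cck genes were chosen after their values were seen. Alternatives covered thresholds, doublets, mitochondrial share, normalization, filter, batch and each mouse left out.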

Additional observations from a re-analysis of the deposited data

Results flagged for a closer look

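In 57 groups of mice over 19 measures, the highest or lowest mouse was set against the nearest of the others by Dixon's ratio, and 8 values, from 5 mice, lay farther out than its 95% critical value; chance flags about 1 in 20 groups. For the share of Vip interneurons among barcodes with at least 1000 genes, NP mouse 27 was at 0.3565% and the next NP mouse at 0.1865%. Among GABAergic nuclei the same mouse was at 2.905%, against 1.573% in the next. Igf1 was highest in this mouse at 387.6 CPM, with the next NP mouse at 291.3 CPM. NP mouse 31, which had 7 members, was highest for Npas1 at 361.5 CPM (next 168.5) and for Htr3a at 87.25 CPM (next 44.94). In control RE mice, Cnr1 was at 945 CPM in mouse 66 (next 502) and Calb2 was lowest in mouse 72 at 18.36 CPM (next 35.49). Htr3a was at 49.27 CPM in stress RE mouse 77, against 13.1 CPM in the next stress RE mouse.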

How the results depend on the processing

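The 0 genes called in each comparison stayed at 0 in every alternative run but 1: with no filter on low counts (18692 genes), 20 were called for control RE minus NP, 24 for stress RE minus control RE and 18 for stress RE minus NP, of which 10, 13 and 10 were among the 3531 tested genes and 2, 4 and 1 had over 50% of their UMIs in 1 mouse. Genes called in it that the text names included Lin7a (1.46, adjusted p 0.0078, control RE minus NP), Epb41l2 (-1.57, adjusted p 0.0018, stress RE minus control RE), Stxbp6 (-1.73 and 1.68, adjusted p 0.00045 and 0.00013, in these comparisons), Nrg1 (-1.03, adjusted p 0.035, control RE minus NP), Nxph1 (1.87, adjusted p 7.4e-06) and Meis2 (2.13, adjusted p 0.0085) for stress RE minus control RE, Cck (1.59, adjusted p 0.039, stress RE minus NP), and Foxp2 and Otx2os1 in both comparisons with control RE mice; the cause was not tested. Leaving out each replicate gave 0 to 0 genes. Of 797 alternative values of the 8 genes of smallest p and of list genes at p under 0.05, none changed direction and 4 passed the threshold, all without that filter (Lin7a, Epb41l2 and Stxbp6, the last in 2 comparisons). The exact permutation p of shares in 135 tested alternatives was 0.124 to 1. Of 153 share values, 137 kept their direction. Within batch 3, control RE minus NP was 0.0213 points of barcodes with at least 1000 genes and stress RE minus control RE was -0.0034; of GABAergic nuclei, stress RE minus control RE was -0.383 and stress RE minus NP -0.0713; of Adarb2-type nuclei, stress RE minus control RE was -0.288, and -0.0210 with Vip thinned to 2000 UMIs. On log2 of the percent of GABAergic nuclei, stress RE minus control RE was -0.0361.

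Leaving out each mouse, differences in percent of barcodes with at least 1000 genes ranged from -0.0393 to 0.0127 (control RE minus NP), 0.0549 to 0.136 (stress RE minus control RE) and 0.0333 to 0.114 (stress RE minus NP); of GABAergic nuclei from -0.0091 to 0.581, -0.224 to 0.434 and 0.130 to 0.706; and of Adarb2-type nuclei from -0.126 to 0.770, -0.174 to 0.836 and 0.153 to 1.16. The direction turned for control RE minus NP without NP mouse 27 (0.0127) or control RE mouse 87 (0.0019) and, in both GABAergic denominators, without control RE mouse 72 (-0.0091 and -0.126). For stress RE minus control RE it turned without stress RE mouse 77 (-0.141 and -0.174) or control RE mouse 87 (-0.224 and -0.0596) in both, and without stress RE mouse 70 (-0.109) for GABAergic nuclei.

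No paired analysis was possible because the labels give each mouse its own number and no number is shared between groups. Not run, for too few mice with enough members, were at least 20 members a mouse, members without other-cell markers and, for both comparisons with NP, at least 2 Vip UMIs at 10 members; at least 2 Vip UMIs with mice of 5 members, added after seeing the data, called 0 genes. The 7 to 32 members a mouse left wide counting intervals on each share.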
